A study of Rattus norvegicus with 9 samples.

Results

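The TGF-beta ligands and receptors of the rat patellar enthesis, the attachment of the patellar tendon to the tibia, were measured as 6 of the 84 target genes of an osteogenesis qPCR array. The members are all genes whose symbol starts with *Tgfb*: the ligand genes *Tgfb1*, *Tgfb2* and *Tgfb3* and the receptor genes *Tgfbr1*, *Tgfbr2* and *Tgfbr3*. Each gene had 1 well on a plate of 96 wells, *Tgfb1* in the last well of row F and the other 5 in the neighboring first wells of row G. Values are threshold cycles (Ct), counted until SYBR Green fluorescence passes a set threshold. A later Ct means less template, and 1 cycle corresponds to a 2-fold difference if the product doubles in each cycle.

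Adult male Sprague Dawley rats underwent surgery at 1 knee. In the scaffold groups the tendon was detached from the tibia, a bone defect was sawn, and a biphasic silk fibroin scaffold was fixed in it, with either a mixed transition (S-MT) or an abrupt transition (S-AT) between its bone and tendon ends. In the empty defect (ED) the same defect was made and the tendon was stitched over it without a scaffold. In the transversal cut (TC) the tendon was cut close to the enthesis and the bone was left intact, so that TC lacks the bone injury of the other operated groups. Tissue was collected, after mechanical testing, 4 weeks (4W) and 12 weeks (12W) after surgery, and uninjured entheses of the rats served as native tissue, which the label places at 4 weeks. The 9 groups have 1 value per gene each, and whether it stands for 1 rat, a pool or a mean is not given in the sources used here. The data therefore hold no replicates, no error and no test, and every difference given here is a description of 9 measurements.

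TGF-beta is secreted in a latent form that is stored in the extracellular matrix, from which integrins and proteases release it. The active ligand binds the type II receptor TGFBR2, which recruits and phosphorylates the type I receptor TGFBR1, and this kinase phosphorylates SMAD2 and SMAD3, which enter the nucleus together with SMAD4. TGFBR3, or betaglycan, is a co-receptor without kinase activity that presents ligand, above all TGF-beta 2. In tendon, TGF-beta signaling is known for its part in the formation of the tissue in the embryo and in matrix deposition and scarring after injury.

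The plates differed in ways that touch the members. The groups had between 20 (native) and 83 (ED 12W) target genes with a Ct of at most 35, the detection limit of the study. Of the 6 members, 2 were within this limit in native tissue, 1 in TC 4W, 5 in TC 12W and 6 in each other group. The wells that the maker usually assigns to a positive PCR control, whose role the files do not name, had a mean Ct of 19.1 in ED 12W and 26.0 in S-AT 12W, against 21.1 to 21.9 in the other groups. The well usually assigned to genomic DNA reached its threshold between 29.2 (ED 12W) and 36.5 cycles (TC 4W). The mean Ct of the reference genes *Ldha* and *Rplp1* was 25.7 to 26.9 in the scaffold groups and 26.2 in ED 12W. It was 28.2 in ED 4W, 29.7 in TC 12W, 29.8 in TC 4W and 30.0 in native tissue. Single Ct values and detection within the limit therefore also carry this difference between plates. The reference genes were 5.69 and 5.38 cycles apart in ED 4W and TC 4W, 2.26 cycles apart in ED 12W and 2.90 to 3.25 cycles apart elsewhere. ED 12W and S-AT 12W thus stood apart before any result was computed, and values without them are given where they matter. Of the 7 markers of tendon and fibrocartilage, 5 were within the limit in native tissue, whereas *Sox9* and *Col10a1* were undetermined, and 0 of 6 markers of osteoblasts and bone and 0 of 3 endothelial markers were within it. In bulk tissue, fewer cells of a type and less RNA per cell cannot be told apart.

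Among the receptors, *Tgfbr1* showed the clearest division of the groups. Its Ct was 29.3 in S-MT 4W, 28.3 in S-MT 12W, 29.8 in S-AT 4W and 29.1 in S-AT 12W. It was 34.2 in ED 4W, 30.7 in ED 12W, 35.1 in TC 4W and 34.2 in TC 12W, and 36.2 in native tissue. All 4 scaffold groups were therefore earlier than all 5 other groups, and native tissue and TC 4W lay beyond the detection limit. The reference genes were also later in native tissue, ED 4W and both TC groups than in the scaffold groups, though not in ED 12W. In the scaffold groups *Tgfbr1* came 2.64 to 6.60 cycles before the genomic DNA well of the same plate, whereas in ED 4W, ED 12W and TC 12W it came 0.16, 1.49 and 3.82 cycles after it. In TC 4W, beyond the limit, it came 1.45 cycles before it. Whether genomic DNA adds to the signal in those groups was not tested.

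*Tgfbr2*, the ligand-binding receptor, was the earliest member in native tissue, with a Ct of 33.2. It was 29.8 in S-MT 4W, 28.4 in S-MT 12W, 29.9 in S-AT 4W and 28.4 in S-AT 12W. Without a scaffold it was 32.8 in ED 4W, 29.1 in ED 12W, 35.6 in TC 4W and 33.9 in TC 12W. The ED 12W value fell among those of the scaffold groups, so the sets of groups overlapped. *Tgfbr3* was the latest member in all 4 scaffold groups but not in ED. It was at 34.3 in S-MT 4W, 33 in S-MT 12W, 34.2 in S-AT 4W, 33.5 in S-AT 12W, 34.5 in ED 4W and 30.2 in ED 12W. It was over the limit in native tissue (35.4), TC 4W (36.9) and TC 12W (35.1), so that the co-receptor was measured in 6 of 9 groups.

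Among the ligands, only *Tgfb3* was within the limit in all 9 groups. Its Ct was 34.5 in native tissue, 32.3 in S-MT 4W, 31.5 in S-MT 12W, 32.4 in S-AT 4W and 31.8 in S-AT 12W. It was 31.6 in ED 4W, 29.0 in ED 12W, 33.4 in TC 4W and 32.6 in TC 12W. By Ct alone the scaffold groups lay inside the range of the unscaffolded ones. The Ct of the genomic DNA well minus that of *Tgfb3* was -2.20 in TC 12W and -0.59 in S-MT 12W, so *Tgfb3* came after it there. It was 0.10 in S-AT 4W and 0.20 in ED 12W, and between 0.48 (native tissue) and 3.97 (S-AT 12W) elsewhere. Whether genomic DNA adds to the *Tgfb3* signal was not tested. *Tgfb1* was undetermined in native tissue and reached 32.2 in S-MT 4W, 30.8 in S-MT 12W, 32.4 in S-AT 4W, 32.0 in S-AT 12W, 33.7 in ED 4W, 29.2 in ED 12W, 36.7 in TC 4W and 34.2 in TC 12W. *Tgfb2* was at 37.8 in native tissue, 34.2 in S-MT 4W, 31.9 in S-MT 12W, 33.5 in S-AT 4W, 32.7 in S-AT 12W, 34.8 in ED 4W, 30.4 in ED 12W, 35.6 in TC 4W and 34.8 in TC 12W. Both ligands were thus over the limit in native tissue and TC 4W and earliest in ED 12W.

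**Figure D1:**
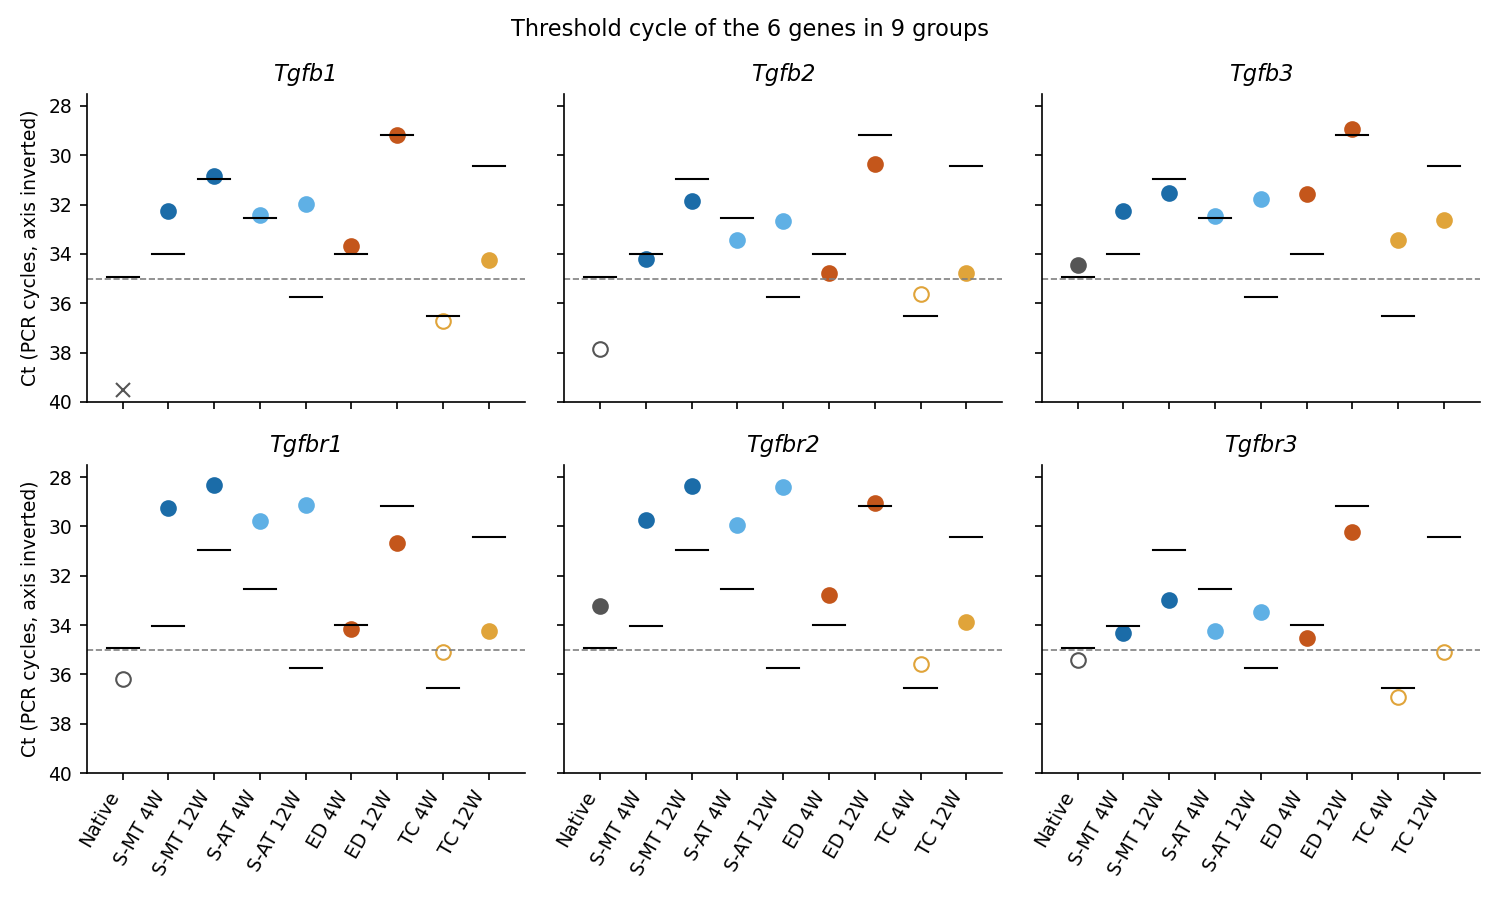
Ct in PCR cycles (inverted axis, higher is more template) of each member in the 9 groups, 1 value each; filled circles lie within the limit of 35 (dashed line), open circles beyond it, a cross marks an undetermined well, and a short black line gives the genomic DNA well of that plate. *Tgfbr1* in the 4 scaffold groups (blue) sits between 28.3 and 29.8, above all other groups and above the black lines of its own plates.

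For the members on which the results turn, the 250 bases upstream of the annotated RefSeq start (rat build GRCr8, read 5′ to 3′ on the strand of the gene) are shown, because *Tgfbr1* and *Tgfb3* separated the scaffold from the unscaffolded groups in opposite directions and *Tgfbr2* had a level pattern near that of *Tgfbr1*. The windows were chr5:66449148-66449397 on the plus strand for *Tgfbr1*, chr8:124761470-124761719 on the minus strand for *Tgfbr2* and chr6:111456947-111457196 on the minus strand for *Tgfb3*. Capitals mark matches on either strand to the GC box (GGGCGG) and the CCAAT box (CCAAT), which are common elements of promoters.
Tgfbr1: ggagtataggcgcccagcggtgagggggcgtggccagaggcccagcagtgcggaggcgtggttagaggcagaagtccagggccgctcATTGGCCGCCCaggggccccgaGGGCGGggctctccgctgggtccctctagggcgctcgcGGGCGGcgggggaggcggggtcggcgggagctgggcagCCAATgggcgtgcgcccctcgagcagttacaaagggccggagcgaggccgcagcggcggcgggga
Tgfbr2: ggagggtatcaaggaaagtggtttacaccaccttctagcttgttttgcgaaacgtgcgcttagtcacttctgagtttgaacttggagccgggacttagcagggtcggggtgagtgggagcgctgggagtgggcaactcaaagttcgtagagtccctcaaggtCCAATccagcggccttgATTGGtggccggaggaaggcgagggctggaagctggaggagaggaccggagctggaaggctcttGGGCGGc
Tgfb3: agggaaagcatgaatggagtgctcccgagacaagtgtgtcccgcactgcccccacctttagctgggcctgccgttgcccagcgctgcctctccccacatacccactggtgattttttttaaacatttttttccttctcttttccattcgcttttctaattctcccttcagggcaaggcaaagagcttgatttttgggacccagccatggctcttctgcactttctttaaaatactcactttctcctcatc
The *Tgfbr1* window held 3 GC boxes, starting 158, 141 and 103 bases before the start, and 2 CCAAT boxes at 163 and 65 bases, the first of which abuts the first GC box in a single run of capitals. The *Tgfbr2* window held 2 CCAAT boxes at 88 and 71 bases and 1 GC box at 7 bases, and the *Tgfb3* window held neither. The TATA box (TATAAA), the AP-1 site (TGANTCA) and the CRE (TGACGTCA) were not found in these windows. Of 33469 rat promoter windows of the same length, 30.5% held a GC box, 34% a CCAAT box, 12.9% a TATA box, 6.34% an AP-1 site and 1.59% a CRE. The G and C content was 75.6% for *Tgfbr1*, 58% for *Tgfbr2* and 48.8% for *Tgfb3*, against a median of 51.2% over all windows. A match describes letters and is no evidence that a factor binds there.

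To compare groups, each Ct was set against the mean Ct of *Ldha* and *Rplp1* on the same plate, with a Ct beyond 35 set to 35. On this log2 scale *Tgfbr1* ranged from -3.41 to -1.92 in the scaffold groups and from -5.99 to -4.43 in the unscaffolded operated groups, without overlap and with the TC 4W value an upper bound. *Tgfb3* ranged from -6.04 to -5.15 in the scaffold groups and from -3.67 to -2.73 in ED and TC, again without overlap but in the opposite direction. Over the 41 target genes within the limit in at least 6 of the 8 operated groups, 4.88% were higher in all scaffold groups, namely *Tgfbr1* and *Spp1* (osteopontin), and 9.76% were lower, namely *Tgfb3*, *Twist1*, *Comp* and *Col2a1*. Without S-AT 12W and ED 12W these shares were 29.3% and 9.76%. The separation of both members was also seen with *Ldha* alone and with *Rplp1* alone as reference, whereas with all 5 housekeeping genes the *Tgfbr1* ranges overlapped (-3.07 to -2.05 and -5.63 to -2.47) and those of *Tgfb3* did not. For *Tgfb1*, *Tgfb2* and *Tgfbr2* the sets of groups overlapped, and for *Tgfbr3* they could not be ordered, since both TC values were upper bounds.

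**Figure D2:**
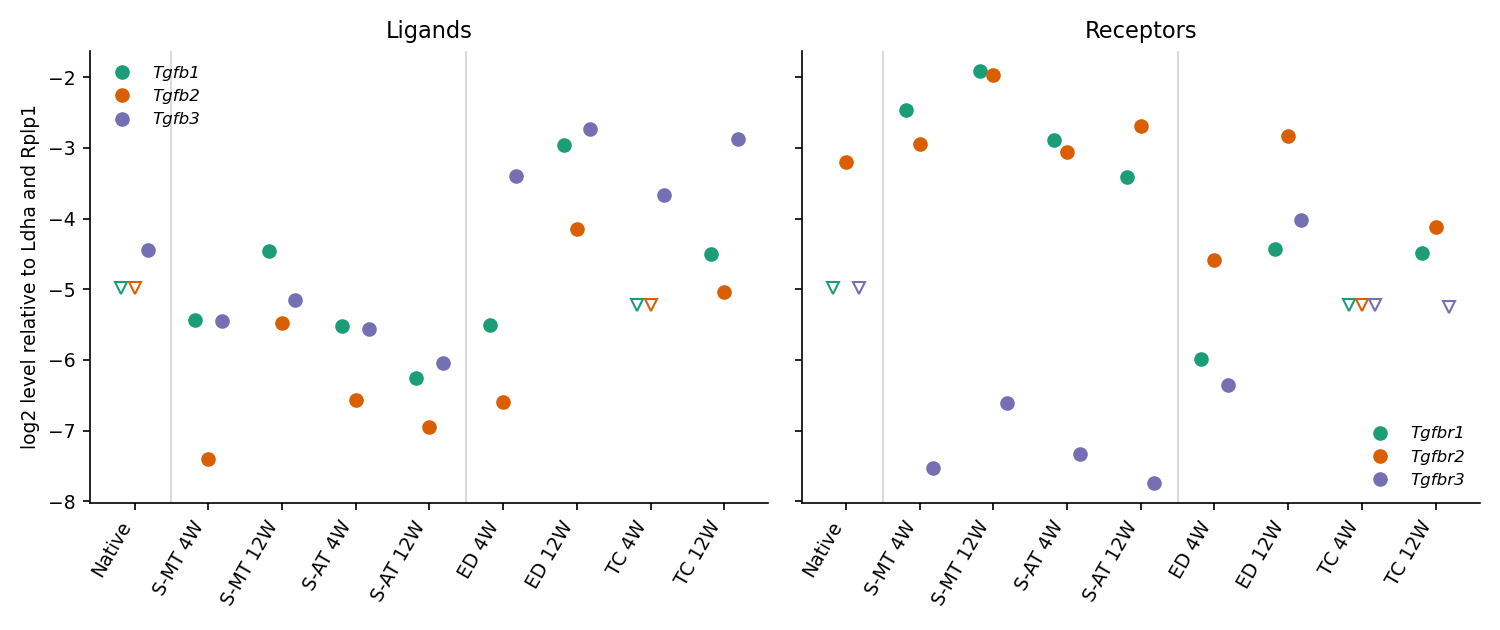
Log2 level relative to the mean of *Ldha* and *Rplp1* for the ligands (left) and receptors (right) in the 9 groups, 1 value each; open triangles are upper bounds from a Ct beyond 35. *Tgfb3* is at -5.15 or below in every scaffold group and at -3.67 or above in ED and TC, while *Tgfbr1* is at -3.41 or above in the scaffold groups and at -4.43 or below in ED and TC.

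Differences between members on the same plate need no reference gene. Amplicon lengths and efficiencies were not known, so that a difference between 2 genes is a difference in Ct and not a ratio of transcripts, but constant assay properties cancel when it is followed from group to group. *Tgfb3* came 2.98 cycles later than *Tgfbr1* in S-MT 4W, 3.23 in S-MT 12W, 2.67 in S-AT 4W and 2.63 in S-AT 12W. It came 2.59 cycles earlier than *Tgfbr1* in ED 4W (a difference of -2.59), and the difference was -1.70 in ED 12W and -1.62 in TC 12W. In native tissue and TC 4W *Tgfbr1* was beyond the limit, and the difference from the deposited cycles was -1.72 and -1.64. The order of ligand and type I receptor was thus reversed between all scaffold groups and all others, with the wells of both genes side by side on the plate.

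The mean difference was 2.88 cycles over the 4 scaffold groups (SD 0.28) and -1.97 over the 3 unscaffolded operated groups with both genes measured (SD 0.54), where the SD is over treatments and times and not over replicates. The shift of 4.85 cycles corresponds to 28.8-fold at a doubling per cycle. It was 4.98 cycles without ED 12W, 4.93 without S-AT 12W and 5.07 without both. Among the 31 target genes measured in these 7 groups, 5 of them members, 35.1% of the 465 pairs showed no overlap between scaffold and unscaffolded groups, and 4.30% shifted by at least as much as *Tgfb3* and *Tgfbr1*. The absence of overlap alone was therefore frequent on this array, and a shift of this size was less so. This pair had the widest shift of all member pairs and is itself among the 465. The 4.30% therefore cannot show whether its shift is unusual.

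*Tgfb3* also came later than *Tgfbr2* in the scaffold groups, by 2.50 to 3.35 cycles, and earlier in ED 4W, ED 12W and TC 12W, with differences from -1.25 to -0.096. In TC 4W, with *Tgfbr2* beyond the limit, the deposited cycles differed by -2.15. In native tissue, where both were measured, *Tgfb3* was 1.24 cycles later, between the ranges of the scaffold and unscaffolded groups. The shift of 3.72 cycles (13.2-fold) between the means was smaller than for *Tgfbr1*. *Tgfb1* was 2.54 to 2.98 cycles later than *Tgfbr1* in the scaffold groups against -1.48 to 0.0027 cycles in ED 4W, ED 12W and TC 12W (10.6-fold), and *Tgfb2* 3.54 to 4.94 against -0.28 to 0.61 in the same groups (12.5-fold). Both genes of these pairs were beyond the limit in TC 4W and native tissue, where the deposited cycles, as far as determined, gave 1.64 for *Tgfb1* in TC 4W and, for *Tgfb2*, 0.55 in TC 4W and 1.66 in native tissue. All 3 ligands therefore trailed the type I receptor in the scaffold groups, and the displacement was widest for *Tgfb3*.

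The receptors differed among themselves as well. *Tgfbr1* was 4.32 to 5.06 cycles ahead of *Tgfbr3* in the scaffold groups (differences of -5.06 to -4.32), while the difference was -0.36 in ED 4W and 0.41 in ED 12W, the only unscaffolded operated groups with both measured. The means were 25.2-fold apart for this pair and 8.90-fold apart for *Tgfbr2* and *Tgfbr3*, for which the difference was -5.04 to -4.27 with a scaffold and -1.77 to -1.19 in ED. Signaling receptors and co-receptor thus stood far apart on the scaffold plates and close together on the ED plates. *Tgfbr1* and *Tgfbr2* themselves stayed within 0.72 cycles of each other in the scaffold groups, with differences from -0.49 to 0.72, against 1.41 in ED 4W, 1.60 in ED 12W and 0.37 in TC 12W. These ranges overlapped.

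Among the ligands, *Tgfb1* came earlier than *Tgfb2* in all 7 groups with both measured, by differences from -1.96 in S-MT 4W to -0.54 in TC 12W, and scaffold and unscaffolded groups overlapped. *Tgfb1* and *Tgfb3* were nearly level in S-MT 4W (-0.0070 cycles) and S-AT 4W (-0.037), *Tgfb1* was earlier in S-MT 12W (-0.69), and *Tgfb3* was earlier by 0.22 in S-AT 12W and in ED 12W, by 2.11 in ED 4W and by 1.62 in TC 12W. *Tgfb3* came before *Tgfb2* in all 7 groups, by 0.33 to 1.95 cycles with a scaffold and by 3.20 in ED 4W, 1.41 in ED 12W and 2.16 in TC 12W. Ordered by Ct, the sequence in S-MT 4W, S-MT 12W and S-AT 4W was the same: *Tgfbr1*, *Tgfbr2*, *Tgfb1*, *Tgfb3*, *Tgfb2* and *Tgfbr3*. S-AT 12W began with *Tgfbr2* and had *Tgfb3* before *Tgfb1*, whereas ED 4W, ED 12W and TC 12W began with *Tgfb3* followed by *Tgfbr2*. In TC 4W *Tgfb3* was the single member within the limit, and in native tissue *Tgfbr2* preceded *Tgfb3*. Without replicates it cannot be said which neighbors in these orders differ beyond error.

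**Figure D3:**
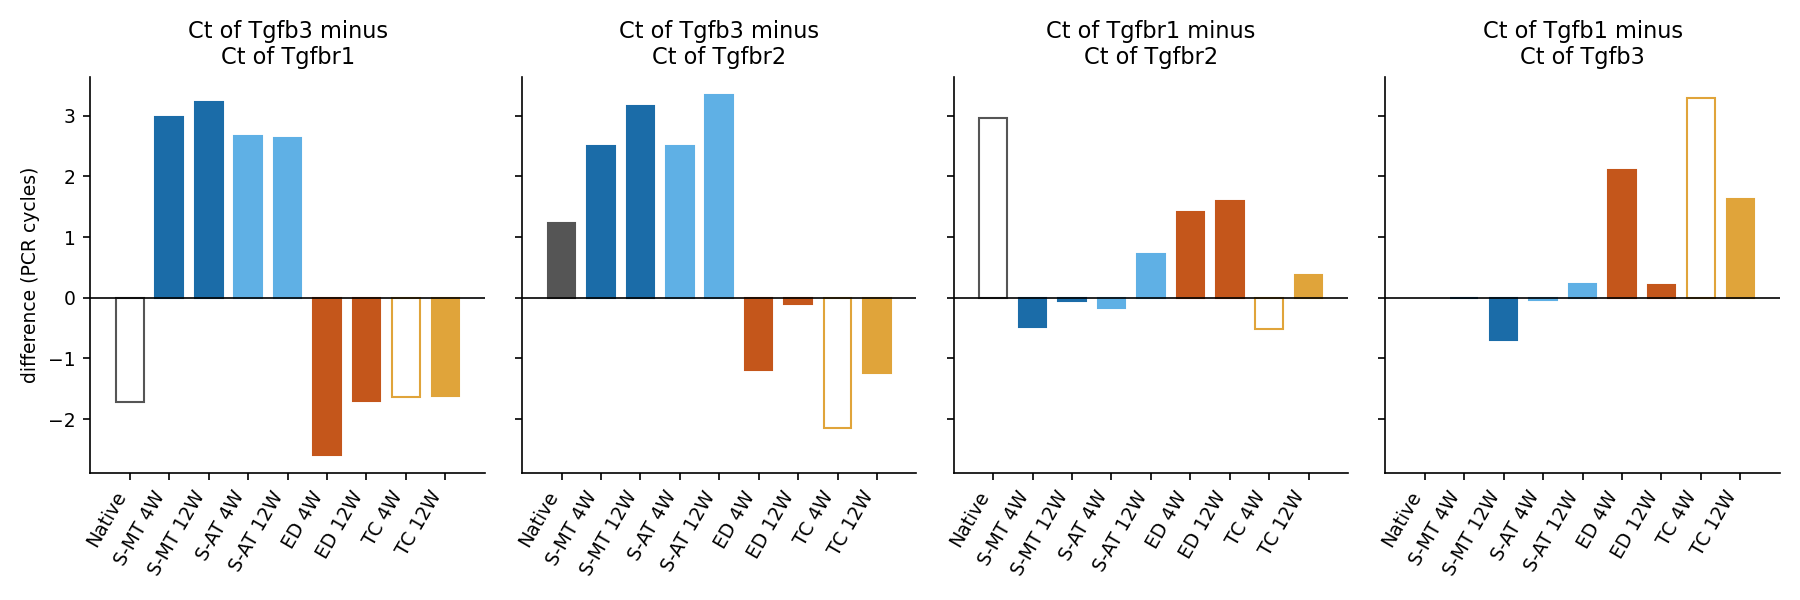
Difference in Ct (PCR cycles) between 2 members on the same plate for each of the 9 groups; a bar above 0 means that the first gene crossed the threshold later, open bars have at least 1 gene beyond 35, and a group without a bar had an undetermined well. *Tgfb3* minus *Tgfbr1* is between 2.63 and 3.23 in the 4 scaffold groups and at -1.62 or below in the other 5 groups.

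Against native tissue, a gene was counted as changed when its level was at least 2-fold apart, with both Ct within the limit or with a bound that already passed 2-fold in that direction. Of 43 member values with a fold, 9 were higher and 4 were lower. Over the 8 comparisons with native tissue, the share of all genes that were higher ran from 4.44% (S-AT 12W) to 41% (ED 12W). The share that were lower ran from 0% (S-MT 4W and S-MT 12W) to 35.6% (S-AT 12W). *Tgfbr1*, beyond the limit in native tissue, exceeded it by at least 5.72-fold in S-MT 4W, at least 8.33-fold in S-MT 12W, at least 4.26-fold in S-AT 4W and at least 2.96-fold in S-AT 12W. The share of all genes with a fold that were higher was 29.4%, 30.3%, 25% and 4.44% in these comparisons. It was the only member counted as higher in any comparison of S-AT with native tissue. *Tgfbr2* was 2.35-fold higher in S-MT 12W and 2.60-fold lower in ED 4W, where 4.76% of genes were lower. With *Ldha* alone as reference the ED 4W difference vanished (log2 -0.051). *Tgfbr2* was at least 4.05-fold lower in TC 4W, where 22.2% of genes were lower. *Ldha* and *Rplp1* were 5.69 and 5.38 cycles apart in ED 4W and TC 4W.

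*Tgfb3* was lower than native with the abrupt scaffold and higher in 3 of the 4 unscaffolded groups. It was 2.16-fold lower than native in S-AT 4W and 3.02-fold lower in S-AT 12W, beside 3.57% and 35.6% of all genes. It was 2.07-fold higher in ED 4W (log2 -0.28 with *Rplp1* alone as reference), 3.27-fold in ED 12W and 2.97-fold in TC 12W, beside 33.3%, 41% and 29.4% of all genes. Genes lower than native made up 4.82% in ED 12W and 5.88% in TC 12W, none of them members. In S-MT it did not pass 2-fold, with log2 values of -0.999 at 4 weeks and -0.70 at 12 weeks. *Tgfb1* was at least 4.06-fold higher in ED 12W. For *Tgfb2* and *Tgfbr3*, both beyond the limit in native tissue, no comparison with native gave a count.

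Setting the scaffold groups against ED and TC left out native tissue, where 4 members were beyond the limit. At 4 weeks *Tgfbr1* exceeded its ED level 11.6-fold in S-MT 4W and 8.60-fold in S-AT 4W, and *Tgfbr2* was 3.11-fold and 2.88-fold higher. The shares of all genes that were higher were 22.6% and 21.1%. *Tgfb3* was 4.13-fold lower in S-MT and 4.46-fold lower in S-AT than in ED, beside 17% and 10.5% of all genes that were lower, and *Tgfbr3* was 2.26-fold lower in S-MT, a direction that turned with *Rplp1* alone (log2 0.095). *Tgfb1* did not pass 2-fold in either comparison. The median log2 fold of the 6 members was -0.36 and 0.02, against -0.37 and -0.21 over all genes, so that the members differed by gene and not as a set.

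Against TC at 4 weeks, *Tgfbr1* was higher by at least 6.80-fold in S-MT 4W and by at least 5.06-fold in S-AT 4W, beside 31.4% and 30.4% of all genes. *Tgfbr2* was at least 4.85-fold and at least 4.49-fold higher. *Tgfb3* was 3.42-fold and 3.70-fold lower, beside 7.84% and 8.93% of all genes. Higher *Tgfbr1* and *Tgfbr2* and lower *Tgfb3* were thus seen against both unscaffolded operations at 4 weeks, but not under every reference. With *Rplp1* alone *Tgfb3* did not pass 2-fold in any of the 4 comparisons, with log2 folds of -0.78 and -0.86 over ED and -0.66 and -0.74 over TC for S-MT and S-AT. With *Ldha* alone *Tgfbr2* had log2 folds over ED of 0.37 and 0.23, and with the median of other target genes in rows F and G it was 0.85 in S-AT over TC. ED and TC themselves differed in 0 of 6 members at this time, beside 28.6% of all genes higher and 2.38% lower in ED, with 5 of the 6 values bounds.

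At 12 weeks *Tgfbr1* was 5.71-fold higher in S-MT than in ED and 5.96-fold higher than in TC, beside 22.9% and 28.6% of all genes, and with 5 housekeeping genes as reference it did not pass 2-fold (log2 0.81 and 0.43). *Tgfb3* was 5.32-fold and 4.83-fold lower, beside 59% and 35.7%, and with the median of rows F and G it did not pass 2-fold (log2 -0.28 and -0.91). *Tgfbr2* was 4.42-fold higher than in TC, a difference that vanished with 5 housekeeping genes (log2 -0.0057), and 1.81-fold higher than in ED. Also lower in S-MT than in ED were *Tgfb1* (2.83-fold), *Tgfb2* (2.51-fold) and *Tgfbr3* (6.01-fold), and *Tgfbr3* was 13.2-fold lower in S-AT than in ED. With the median of rows F and G, *Tgfb1* and *Tgfb2* in S-MT turned positive (log2 0.63 and 0.81), as did *Tgfbr3* in S-AT. In S-AT *Tgfbr1* was 2.03-fold higher than in ED and 2.12-fold higher than in TC, where 2.41% and 5% of all genes were higher, whereas 88% and 76.7% were lower. *Tgfb3* was 9.88-fold and 8.97-fold lower in S-AT, *Tgfb1* 9.88-fold and 3.39-fold, and *Tgfb2* 7.00-fold and 3.78-fold. With the median of rows F and G as reference all 3 turned positive against ED (log2 0.84, 0.84 and 1.33), and *Tgfb3* over TC was at -0.058. The genes in this median were those within the limit in both groups of a comparison, so they changed between comparisons. With 5 of them fixed over the 8 operated groups, *Tgfb3* stayed lower in every scaffold group. With all 5 housekeeping genes as reference, *Tgfbr1* in S-AT 12W lay below ED 12W and TC 12W, at log2 values of -0.21 and -0.60, so its direction at this time depended on the reference. ED 12W over TC 12W gave *Tgfb1* 2.91-fold, *Tgfbr2* 2.45-fold and *Tgfbr3* at least 2.35-fold higher, beside 31.3% of all genes that were higher and 8.43% that were lower.

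**Figure D4:**
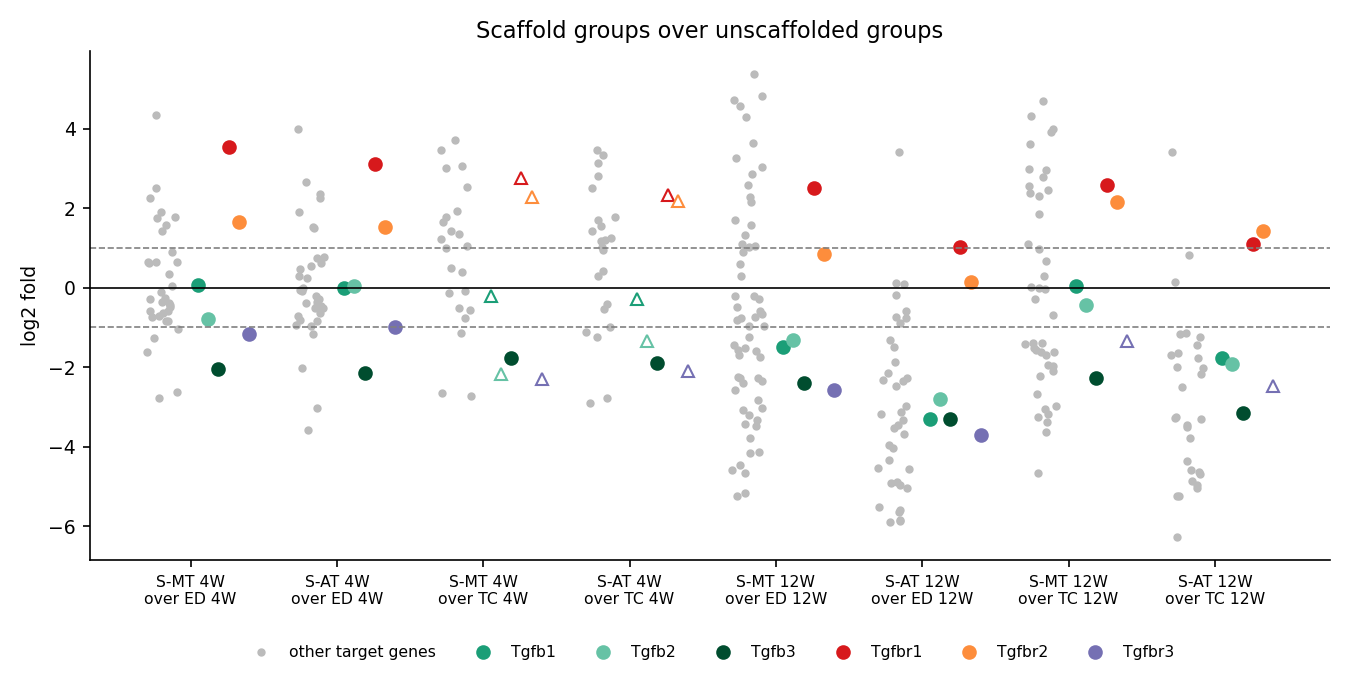
Log2 fold of the scaffold groups over ED and TC at the same time for the 6 members (colored) and for the other target genes measured in both groups (grey); open triangles are members with a Ct beyond 35 in the unscaffolded group, for which the true value is higher, and dashed lines mark 2-fold. *Tgfbr1* lies at or above the upper dashed line in all 8 comparisons and *Tgfb3* below the lower one in all 8.

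Between the scaffolds, the members were close at 4 weeks and apart at 12 weeks. In S-MT 4W over S-AT 4W 0 of 6 members passed 2-fold, with log2 folds from -0.84 for *Tgfb2* to 0.43 for *Tgfbr1*, beside 1.75% of all genes that were higher and 5.26% that were lower. In S-MT 12W over S-AT 12W 4 of 6 were higher, *Tgfb1* 3.49-fold, *Tgfbr1* 2.81-fold, *Tgfb2* 2.79-fold and *Tgfbr3* 2.19-fold. Here 90.9% of all genes were higher in S-MT, and the median log2 fold was 1.31 for the members and 2.60 over all genes. The direction for these 4 members turned when the other target genes of their plate rows served as reference, with log2 values of -0.28, -0.59, -0.60 and -0.95. The positive PCR control wells of S-AT 12W were the latest of all plates, and their part in this difference was not tested.

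Over time, the members moved less than the array in S-AT, and in ED the comparison with the array depended on which genes were counted. In S-AT 12W over S-AT 4W 0 of 6 members passed 2-fold, while 75.4% of all genes were lower at 12 weeks, and the median log2 fold was -0.44 for the members and -2.14 over all genes. In S-MT *Tgfb2* was 3.80-fold higher at 12 weeks, beside 36.4% of all genes, and the other 5 members had log2 folds from 0.30 to 0.98, or 1.23-fold to 1.98-fold. In ED 5 of 6 members were higher at 12 weeks, beside 67.5% of all genes that were higher and 16.9% that were lower. They were *Tgfb1* 5.89-fold, *Tgfb2* 5.48-fold, *Tgfbr3* 5.03-fold, *Tgfbr2* 3.37-fold and *Tgfbr1* 2.95-fold. None of these 5 passed 2-fold with the median of rows F and G as reference, where the log2 folds were 0.71, 0.61, 0.48, -0.095 and -0.29 in the same order, or with *Ldha* alone, where they were 0.84, 0.74, 0.61, 0.036 and -0.16. The median log2 fold in ED was 2.04 for the 6 members, all measured at both times. It was 1.92 over all genes with a fold, bounds included, and 0.75 over the 42 genes measured at both times. In ED 12W no member was 1 cycle or more ahead of the genomic DNA well, which was the earliest of all plates. In TC *Tgfbr2* was at least 2.15-fold higher at 12 weeks, beside 23.1% of all genes that were higher and 7.69% that were lower.

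Downstream of the receptors, the SMADs did not pass 2-fold at 4 weeks with the mean of *Ldha* and *Rplp1* as reference. These reference genes were 5.69 cycles apart in ED 4W. Whether the SMADs pass 2-fold with *Ldha* or *Rplp1* alone was not tested. *Smad2*, which the type I receptor phosphorylates, had a Ct of 31.1 in S-MT 4W, 31.3 in S-AT 4W and 33.2 in ED 4W, and relative to the reference it was 1.57-fold and 1.45-fold higher in the scaffold groups. *Smad4*, the shared partner, was at 32.1, 32.3 and 33.1, or 1.31-fold and 1.43-fold lower relative to the reference. *Smad3* was at 34.4 in both scaffold groups and beyond the limit in ED 4W (35.2). Of the 3 TGF-beta SMADs 0 passed 2-fold in either comparison, where 22.6% and 21.1% of all genes were higher and 17% and 10.5% lower. Of the 4 BMP receptors on the array, which belong to the same receptor superfamily, 0 were counted, but only 2 were measured in both groups. *Acvr1* (35.5) and *Bmpr1b* (39.2) were beyond the limit in ED 4W. Their folds were bounds, and the true values could be higher. At 12 weeks 2 of 3 TGF-beta SMADs were lower in S-MT than in ED and 1 of 3 lower than in TC, beside 59% and 35.7% of all genes. In S-AT 3 of 3 were lower than in ED and 2 of 3 lower than in TC, beside 88% and 76.7%, and 3 of 3 were higher in S-MT than in S-AT, beside 90.9%.

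Of 7 genes that store or release latent TGF-beta, 4 were higher and 1 was lower in both scaffold groups than in ED at 4 weeks, against the same shares of all genes. The integrin subunits *Itgav* (5.67-fold in S-MT 4W and 6.32-fold in S-AT 4W) and *Itgb1* (3.38-fold and 2.85-fold) and the gelatinase *Mmp2* (3.42-fold and 3.71-fold) were higher, and the proteoglycan *Bgn* was 2.41-fold and 2.23-fold lower. The median log2 fold of the list was 1.67 and 1.12, against -0.37 and -0.21 over all genes. Folds of this list and of the other gene lists rest on the mean of *Ldha* and *Rplp1*. These genes were 5.69 and 5.38 cycles apart in ED 4W and TC 4W, and the lists were not tested with other references. Against TC at 4 weeks 4 were also higher and 1 lower in both, beside 31.4% and 30.4% of all genes higher and 7.84% and 8.93% lower. *Itgav* (35.5) and *Mmp9* (36.6) were beyond the limit in TC 4W, so that their folds were bounds. At 12 weeks 5 were higher and 1 lower in S-MT than in ED and than in TC, beside 22.9% and 28.6% of all genes higher and 59% and 35.7% lower. In S-AT 0 were higher and 3 were lower than in ED and 6 lower than in TC, beside 88% and 76.7% of all genes lower.

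Of 6 matrix genes that TGF-beta is known to induce, 0 were higher and 1 was lower in both scaffold groups than in ED at 4 weeks, beside 22.6% and 21.1% of all genes higher and 17% and 10.5% lower. The lower one was *Comp*, a matrix protein of tendon and cartilage, by 6.16-fold and 12.1-fold, while *Col1a1*, which encodes a chain of type I collagen, had log2 folds of -0.50 and -0.28. Against TC at 4 weeks the higher ones numbered 3 for S-MT and 5 for S-AT, beside 31.4% and 30.4% of all genes higher. In S-AT 1 was lower, beside 8.93% of all genes. At 12 weeks 5 of 6 were higher in S-MT than in ED and than in TC, beside 22.9% and 28.6%, and 1 was lower than in TC, beside 35.7%. In S-AT 0 were higher and 3 were lower than in ED and 5 lower than in TC, beside 88% and 76.7%. Over native tissue 4 of 6 were higher in S-MT at both times and in S-AT 4W, beside 29.4%, 30.3% and 25%. In S-AT 4W 1 was lower, beside 3.57%, and in S-AT 12W 5 of 6 were lower, beside 35.6%. The rise was also seen without a scaffold, with 5 of 6 higher in ED 4W, beside 33.3%. In TC 4W 2 were higher and 1 lower, beside 22.2% each. In ED 12W and TC 12W 0 were higher and 2 lower, beside 4.82% and 5.88% lower.

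Some markers of myeloid cells and osteoclasts were higher with a scaffold at 4 weeks, as *Tgfbr1* was. Of the 5 markers, 4 were within the limit in each scaffold group and 2 in ED 4W. In both scaffold groups 3 were higher than in ED, beside 22.6% and 21.1% of all genes. They were *Ctsk* by 20.4-fold and 15.7-fold, *Cd36* by 3.73-fold and 5.13-fold and *Mmp9* by at least 3.17-fold and 2.18-fold. Against TC 4W 2 were higher in both, beside 31.4% and 30.4%. *Itgam*, which marks myeloid cells, was beyond the limit in S-AT 4W and ED 4W. At 12 weeks 3 of the 5 markers were higher and 1 lower in S-MT than in ED, beside 22.9% and 59% of all genes. In S-AT 12W 0 were higher and 5 lower than in ED, beside 2.41% and 88%, although *Tgfbr1* was 2.03-fold higher there. The summed log2 level of the list ranged from -4.48 to 0.85 in the scaffold groups and from -3.59 to -1.33 in the unscaffolded operated groups, and its part in the *Tgfbr1* difference was not tested.

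Level patterns were compared across the 9 groups among the 32 genes within the limit in at least 7 groups. By Pearson r, *Ctsk*, the cathepsin of osteoclasts, was nearest to *Tgfbr1* (0.83), followed by *Tgfbr2* (0.79) and *Spp1* (0.76). This order depended on the measure. Spearman rho was 0.83 for *Tgfbr2*, 0.73 for *Ctsk* and 0.72 for *Spp1*. With Ct centred on the mean of the 32 genes, r was 0.85 for *Tgfbr2*, 0.76 for *Spp1* and 0.69 for *Ctsk*. *Tgfbr2* was nearest by Pearson r to *Tgfbr1* (0.79), *Vegfa* (0.76) and *Ctsk* (0.59). For *Tgfbr2* with *Ctsk*, rho was 0.40 and the centred r 0.36. Of the 15 nearest genes named over all members, 11 were kept by rho and 10 by the centred r. *Tgfb3* was nearest to *Twist1* (0.90, Spearman rho 0.97), a transcription factor of mesenchymal cells, to *Smad5* (0.88) and to *Pdgfa* (0.86). *Tgfb1* was nearest to *Pdgfa* (0.90), *Twist1* (0.86) and *Flt1* (0.84), and *Tgfb2* to *Smad5* (0.85), *Tgfb1* (0.83) and *Twist1* (0.82). Between ligand and receptor the coefficient was -0.71 for *Tgfb3* and *Tgfbr1* and -0.57 for *Tgfb3* and *Tgfbr2*. These coefficients describe 9 plates whose genes share one reference and one amount of template, and *Tgfbr3* was measured in too few groups to be included.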

How the data were processed

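Total RNA of the patellar enthesis was reverse transcribed and amplified by the authors with SYBR Green on a rat osteogenesis array. The deposited Ct table holds PCR cycles, some undetermined. The deposited normalized table holds linear ratios to the mean of *Ldha* and *Rplp1*, that is 2 to the power of the negative Ct difference. A deposited table of the authors' fold changes over native tissue was not used. The methods state 8 rats per group and time, but the tables hold 1 value per gene and group, so that precision is unknown.

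A Ct that was undetermined or beyond 35 counted as 35. Folds followed the delta delta Ct calculation with the *Ldha* and *Rplp1* average as reference, for 24 comparisons (8 with native tissue, 4 over time, 12 between treatments). A fold with 1 Ct beyond 35 is a bound, and with both beyond it none was given. Differences within a plate used Ct alone. In the normalized table the members beyond the limit in native tissue all hold the same value, 0.0317. It was treated as a floor and left out of the comparison, as were undetermined entries. Of the 54 member values, 44 then remained, and 43 lay within 0.02 log2 of the recomputed ones. The largest difference was 0.082, for *Tgfbr3* in TC 12W. *Tgfbr3* in S-MT 4W is written there as undetermined, although its Ct was 34.3.

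Named genes were all members, the SMADs and up to 4 others per pathway list, and the 3 nearest patterns per member. Members, lists and alternatives were chosen with earlier results of these data known. Alternatives were other references, other cut-offs, 1.9-fold amplification per cycle, the deposited normalized table, and, added after the data were seen, leaving out ED 12W and S-AT 12W. Control wells were named from the maker's usual layout. Promoter sequences came from RefSeq, matched by symbol for all 6 members. Calculations used Python 3.11.15, pandas 2.3.3 and numpy 2.4.6, figures matplotlib 3.10.9, and the fold calculation was tested on simulated data.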

Additional observations from a re-analysis of the deposited data

Results flagged for a closer look

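The well usually assigned to genomic DNA, which enters no comparison, crossed its threshold earlier than in native tissue (34.9) in 6 groups, at a Ct of 34.0 in S-MT 4W, 30.9 in S-MT 12W, 32.5 in S-AT 4W, 34.0 in ED 4W, 29.2 in ED 12W and 30.4 in TC 12W.

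For 5 members the change from 4 to 12 weeks was upward in S-MT and downward in S-AT. The log2 change in S-MT minus that in S-AT was 1.72 for *Tgfb1*, 2.32 for *Tgfb2*, 0.78 for *Tgfb3*, 1.07 for *Tgfbr1* and 1.32 for *Tgfbr3*. With 1 value per group this difference was not tested. Opposite changes were frequent on the array, in 34 of the 42 target genes measured in all 4 groups, and the median difference was 3.18 over these genes and 1.19 over the 6 members.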

How the results depend on the processing

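The shift of *Tgfb3* against *Tgfbr1* within a plate was 4.57 to 4.77 cycles with other cut-offs, and it uses no reference. On the log2 scale the 4.85 at a doubling per cycle became 4.49 at 1.9-fold amplification. Counts of changed members depended more on the processing. Against native tissue the 13 counted values became 20 with 5 housekeeping genes as reference, 2 with a cut-off of 33, 26 without a cut-off and 7 with only measured pairs. Over time the 7 became 2 with *Ldha*, 13 with *Rplp1*, 12 with 5 housekeeping genes, 3 with the median of other genes of rows F and G, 2 with a cut-off of 33, 2 without ED 12W and 2 without ED 12W and S-AT 12W. Between treatments the 38 became 23 with a cut-off of 33, 25 without ED 12W, 24 without S-AT 12W and 16 without both, where fewer comparisons remain by construction. A cut-off of 33 turns measured values into bounds. The cause of the other changes was not tested. Of 58 single counted values, 3 kept direction and call under every alternative that gave a value, all for *Tgfbr1*: S-MT 4W and S-AT 4W over ED 4W, and S-MT 12W over native.

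With the median of rows F and G as reference, log2 values of opposite sign were 0.84 (*Tgfb1*), 1.33 (*Tgfb2*), 0.84 (*Tgfb3*) and 0.42 (*Tgfbr3*) for S-AT 12W over ED 12W, 1.34 (*Tgfb1*) and 1.19 (*Tgfb2*) for S-AT 12W over TC 12W, and 0.63 (*Tgfb1*) and 0.81 (*Tgfb2*) for S-MT 12W over ED 12W. They were -0.28 (*Tgfb1*), -0.60 (*Tgfb2*), -0.59 (*Tgfbr1*) and -0.95 (*Tgfbr3*) for S-MT 12W over S-AT 12W, and -0.29 (*Tgfbr1*) and -0.095 (*Tgfbr2*) for ED 12W over ED 4W. The genes in this median changed between comparisons. With 5 of them fixed over the 8 operated groups, *Tgfb3* was lower and *Tgfbr1* higher in all scaffold groups than in ED and TC. With *Rplp1* alone *Tgfb3* in ED 4W over native was -0.28 and *Tgfbr3* in S-MT 4W over ED 4W was 0.095, and with *Ldha* alone *Tgfbr1* in ED 12W over ED 4W was -0.16. With 5 housekeeping genes *Tgfbr1* was -0.21 in S-AT 12W over ED 12W and -0.60 over TC 12W, and *Tgfbr2* was -0.25 in S-AT 12W and -0.0057 in S-MT 12W over TC 12W.

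No paired analysis was possible because each group has 1 value per gene, and leaving out each rat was not run because the tables hold no values per rat. Detection limits the native and TC 4W comparisons, where 4 and 5 members were beyond 35.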
